A study of Mus musculus with 153 samples.

Results

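The small nucleolar RNA (snoRNA) genes were followed in tail skin of backcross mice. They were taken as every gene whose symbol begins with Snord or Snora and that has a probe set carrying that symbol alone. Where a gene had several such probe sets, the brightest on average stood for it. The rule gave 55 genes, 30 of the box C/D class (Snord) and 25 of the box H/ACA class (Snora), out of 18810 genes measured in the same way. They came from 62 probe sets, and 13 further snoRNA probe sets that carry several symbols were left out. The mouse RefSeq table used here holds 133 genes with such symbols.

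Male Mus spretus were crossed with female FVB/N mice lacking Hras, and the F1 daughters were mated to FVB/N males that were Hras -/- or Hras -/+. The offspring analysed were 62 males and 52 females labelled WT (Hras +/+) and 19 males and 18 females labelled HET (Hras +/-), all untreated and 8 weeks old. The deletion of Hras was constitutional, and each array held RNA of 1 mouse. In this cross a WT mouse must carry a Mus spretus copy of Hras from its mother, so the genotype label and Mus spretus or FVB/N alleles linked to Hras cannot be told apart. Total RNA was purified with Trizol and then an RNeasy column, and was hybridised to Affymetrix arrays on 3 plates of 49, 46 and 56 mice. Such columns are known to keep short RNA poorly, and the part of this step in the snoRNA values was not tested.

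Small nucleolar RNAs are short noncoding RNAs of the nucleolus that pair with ribosomal RNA and guide its chemical modification. Box C/D snoRNAs direct 2'-O-methylation by the enzyme Fbl, and box H/ACA snoRNAs direct pseudouridylation by Dkc1. A few, among them Snord118 (U8) and the Snora73 pair (U17), are needed for the cutting of the ribosomal RNA precursor instead. Most vertebrate snoRNAs are trimmed out of introns of a host gene, often a ribosomal protein gene or a noncoding Snhg (small nucleolar RNA host) gene.

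Females and males did not overlap for Xist, expressed from the inactive X (9.32 to 10.87 in females, 1.80 to 5.23 in males, log2), or for the Y gene Kdm5d (2.57 to 3.98 and 6.12 to 7.81), so no sex label was contradicted. Hras itself was not analysed here, so the genotype labels were not checked against its level. Array medians lay between 4.67 and 4.89 log2, and the number of arrays limits the precision of every comparison. Above the array background defined below stood all 6 keratinocyte markers (9.73 to 12.19) and all 5 dermal fibroblast markers (8.18 to 11.19). So did 3 of 3 adipocyte, 3 of 3 leukocyte, 3 of 4 skeletal muscle, 2 of 3 hepatocyte and 2 of 5 neuron markers, with highest means of 7.32, 9.05, 6.49, 4.71 and 5.86. In bulk skin, fewer cells of a type and less RNA per cell cannot be told apart.

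By position, 54 of the 55 genes lay inside another gene, 40 in protein-coding and 14 in noncoding hosts, and Snord118 lay in none. The 44 hosts included 16 ribosomal protein genes, which held 20 of the snoRNA genes. Ribosomal protein genes and several Snhg genes are known for a pyrimidine stretch at the transcription start. The sequences below are the starts of 7 hosts picked by hand from those whose snoRNA genes carry results that follow. Other such hosts, among them Rps3a1 and Rpl10, are not printed, so the share with capitals here is not that of all hosts. The 7 printed sequences were taken from RefSeq (GRCm38.p6). Each runs 5' to 3' on the host's strand from 15 bases before the annotated start to 15 bases from it, and capitals mark CTTTC or CTCTT or CTTTT or CTCTC.
Rps12: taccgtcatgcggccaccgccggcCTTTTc
Rpl13a: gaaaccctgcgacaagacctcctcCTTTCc
Rplp2: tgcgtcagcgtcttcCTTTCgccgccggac
Snhg12: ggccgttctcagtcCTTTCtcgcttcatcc
Snhg3: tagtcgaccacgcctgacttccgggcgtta
2410006H16Rik: tcacgcgccgtCTTTCtctgcggccatcat
1110038B12Rik: ggcgggcggcacacgggtCTCTTtgtgcac
Rps12 holds Snora33, Rpl13a holds Snord33 and Snord35a, Rplp2 holds Snora52, and Snhg12 holds Snora16a, Snora44 and Snora61. Snhg3 holds Snora73a and Snora73b, the noncoding gene 2410006H16Rik holds Snord49a and Snord49b, and the noncoding gene 1110038B12Rik holds Snord52.

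These windows lie at chr10:23787195-23787224 (Rps12, minus strand), chr7:45128731-45128760 (Rpl13a, minus), chr7:141447636-141447665 (Rplp2, plus) and chr4:132308663-132308692 (Snhg12, plus). The others lie at chr4:132353672-132353701 (Snhg3, minus), chr11:62602862-62602891 (2410006H16Rik, plus) and chr17:34952457-34952486 (1110038B12Rik, minus, the first of its 2 annotated starts). One of the 4 words, which can overlap one another, stood on the sense strand between 10 bases before and 15 bases from the start in 11 of the 34 hosts with an entry (32.4%). The same held for 12.9% of all 27025 genes with an entry. On the opposite strand the shares were 2.94% of the hosts and 13.1% of all genes. A match describes these letters only, and the 10 hosts without an entry were not searched.

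Most snoRNA genes gave signal above array background in tail skin. Background was set at 3.72 log2, the 95th percentile of the means of 1156 olfactory and vomeronasal receptor genes, which serve the nose and are used here as genes silent in skin. The mean of 50 of the 55 snoRNA genes (90.9%) lay above it, beside 71.1% of all 18810 genes and 46.1% of 306 microRNA genes. By class the count was 26 of 30 box C/D and 24 of 25 box H/ACA genes. All 3 small Cajal body RNA genes, relatives that modify spliceosomal RNA, and 10 of 12 other short noncoding RNA genes also lay above background. In 42 snoRNA genes every mouse was above it.

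**Figure D1:**
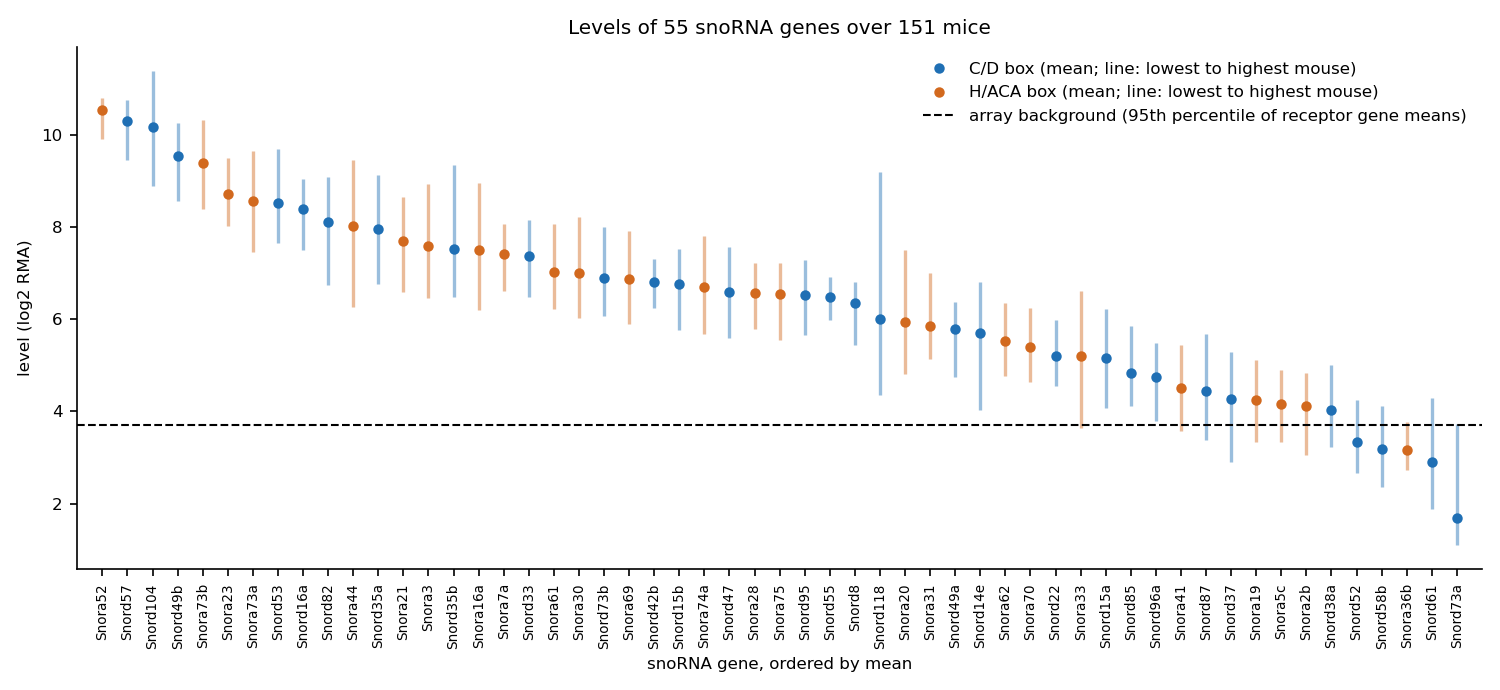
Each point is the mean log2 level of a snoRNA gene over all mice and each line runs from the lowest to the highest mouse, coloured by class, with the array background dashed. The means run from 1.69 (Snord73a) to 10.53 (Snora52), and 5 of them lie under the dashed line.

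The brightest probe set was that of Snora52, hosted by the ribosomal stalk protein gene Rplp2, with mice between 9.90 and 10.80 and a median of 10.52. Snord57, in the intron of the box C/D core protein gene Nop56, followed with a mean of 10.31 ± 0.20 (SD over all mice), and Snord104 with 10.17 ± 0.42. Next came Snord49b at 9.54 ± 0.33, Snora73b at 9.39 ± 0.43 and Snora23, hosted by the importin gene Ipo7, at 8.72 ± 0.29. Snora73a at 8.56 ± 0.43 and Snord53 at 8.53 ± 0.36 completed the 8 brightest. Probe sets differ in how brightly they report the same amount of RNA, so these means are no ranking of snoRNA amounts. The annotated lengths of the 55 genes ran from 53 to 205 bases with a median of 91.

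The 5 genes at or under background were Snord73a (mean 1.69), Snord61 (2.91), Snora36b (3.16), Snord58b (3.18) and Snord52 (3.33). None was above background in more than 19 mice. A further 3 genes lay within 0.5 log2 above it. Any difference of these genes was measured at or near background.

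Snora52 was the steadiest of the 55 across mice and Snord118 the most variable. The spread was measured as the SD of residuals after removing plate, sex and genotype. Its median was 0.36 over the snoRNA genes, against 0.23 over the silent receptor genes and 0.22 over all genes. In 22 of the 55 it exceeded 0.38, the 95th percentile of the silent genes, which 8.35% of all genes exceeded.

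Snord118, the U8 RNA of ribosomal RNA processing, had a residual SD of 0.85. Its lowest mouse stood at 4.36, the median at 5.93 and the highest at 9.20, and mice of both genotypes filled this range (4.38 to 7.83 in HET, 4.36 to 9.20 in WT). The next largest residual SDs were 0.56 for Snord35b and 0.54 and 0.52 for Snora16a and Snora44 in Snhg12. Snora33 in Rps12 (0.51), Snora20 in the chaperonin gene Tcp1 (0.50), and Snora3 in Rpl27a and Snord73a in Rps3a1 (both 0.49) followed. Snord73a is the dimmest of the 55, with a median of 1.54 and 1 mouse above background.

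The snoRNA genes rose and fell together from mouse to mouse. Over all 1485 pairs the median Pearson r of the residuals was 0.184, 81.8% of the pairs lay above 0, and r ran from -0.302 to 0.879. The first principal component held 29.4% of their variance. For comparison, the median was 0.0597 over pairs of silent receptor genes, with 8.04% of variance on the first component, and 0.0454 over pairs of microRNA genes. These 2 groups are dimmer, with median levels of 2.40 and 3.55 log2 against 6.55 for the snoRNA genes. The share on the first component also depends on the number of genes, here 1156 receptor genes against 55. Over pairs of the 29 measured hosts the median was 0.0894, with 17.1% of variance on the first component. Over the 1356 pairs on different chromosomes the median was 0.181. All pairs share the same arrays, so the pairs are not independent and these medians carry no test.

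**Figure D2:**
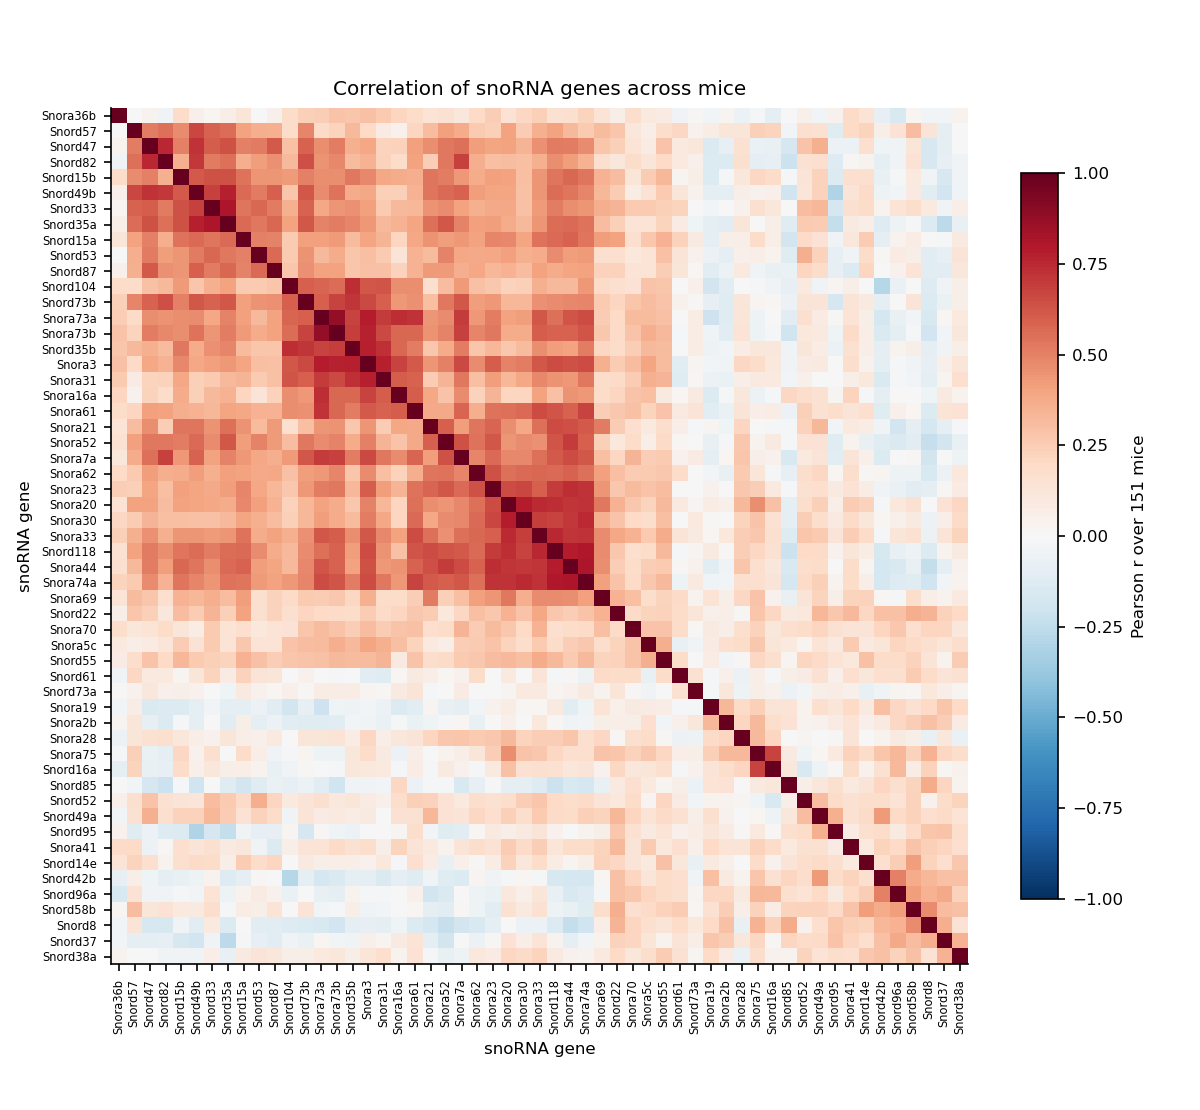
Pearson r between the residuals of each pair of the 55 snoRNA genes over all mice, ordered by similarity. A block of box H/ACA and box C/D genes, from Snord57 to Snora74a, is mostly red. Its highest value is 0.879, between Snora73a and Snora73b. Genes such as Snord8 and Snord85 stay pale against this block.

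The shared movement was uneven. A median r to the other 54 genes above 0.2 was reached by 33 genes, led by Snora74a (0.407), Snora44 (0.396), Snord118 (0.388) and Snora7a (0.381). It stayed under 0.05 in 8 genes, among them Snord8 (-0.0284), Snord85 (-0.0181) and Snord42b (0.00356). Snora74a (U19) and Snord118 are long for snoRNAs, at 198 and 137 bases, and their mutual r of 0.797 joined an H/ACA gene on chromosome 18 with a C/D gene on chromosome 11.

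Other short noncoding RNAs moved with the snoRNA genes. For 32 of the 55 (58.2%) the single most similar of all genes was another short noncoding RNA gene, counting snoRNA, small Cajal body RNA and the 12 other short RNA genes but not microRNA genes. Of the genes that are no snoRNA gene, 0.267% had such a gene as their most similar. Outside the snoRNA genes the vault RNA gene Vaultrc5 stood among the 20 most similar genes of 28 snoRNA genes, and the spliceosomal RNA gene Rnu2-10 among those of 22. The Y RNA genes Rny1 and Rny3 did so for 13 and 12, and Rnu3a for 12. Rnu3a encodes U3, itself a box C/D snoRNA that the symbol rule does not take in. The mean of the snoRNA genes followed the mean of the 12 other short noncoding RNA genes across mice with r = 0.789, the mean of the measured hosts with r = 0.509 and the mean of the silent receptor genes with r = 0.00968. With the mean of the other short RNAs removed from each gene, the median r between snoRNA genes was 0.0805.

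The 32 genes nearest to another short RNA had a median level of 7.39 log2 and a median length of 109.5 bases. Another 17 genes (30.9%) were nearest to a gene outside that class on another chromosome, with medians of 4.84 log2 and 77 bases. Snora75, in the nucleolin gene Ncl, was closest to the splicing gene Luc7l (r = 0.701), and Snord96a to the cyclin gene Ccnl2 (r = 0.539). The remaining 6 (10.9%) were nearest to a gene outside that class on their own chromosome, as were 21.7% of the genes that are no snoRNA gene. They included Snora70 with Plxna3 on the X chromosome (r = 0.512), Snora41 with Carf on chromosome 1 (r = 0.514) and Snord95 with the microRNA gene Mir340 on chromosome 11 (r = 0.619).

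Several snoRNA genes within 1 host varied together. Over 11 pairs in a shared host the median r was 0.451, against 0.183 over the 1474 pairs in different hosts. Snora73a and Snora73b in Snhg3 had r = 0.879 (Spearman rho 0.869, two-sided permutation p = 1e-05 for each, the smallest that 100000 draws can give). They are close copies in sequence, and cross-hybridisation between them was not tested. Snord33 and Snord35a in Rpl13a, box C/D RNAs known from work on the response to lipid overload, had r = 0.806 (rho 0.791, permutation p = 1e-05 for each). Both pairs were positive in each plate, from 0.793 to 0.941 for the Snora73 pair and from 0.741 to 0.882 for the Rpl13a pair.

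Snhg12 was the only host with 3 measured snoRNA genes. Its Snora16a and Snora61 had r = 0.603, Snora44 and Snora61 had 0.593, and Snora16a and Snora44 had 0.451. Within plates these ran from 0.291 to 0.790. In 3 other pairs no relation was detected, with r at 0.0931 for Snord95 and Snord96a in Rack1, 0.0135 for Snord73a and Snord73b in Rps3a1 and -0.0952 for Snora75 and Snord82 in Ncl. After Benjamini-Hochberg adjustment over the 11 pairs, 8 had an adjusted permutation p under 0.05, all with r above 0.

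The relation of a snoRNA gene to its own host ran from clearly negative to clearly positive. In 33 of the 55 the host had a probe set, and the median r with it was 0.143, beside 0.0770 with the hosts of other snoRNA genes. A snoRNA gene and its host lie at the same place in the genome. In this backcross, a relation between them and alleles that linked genes share cannot be told apart. Of the 20 genes most similar to Snora70, 12 lie on its own chromosome, as do 14 for Snora41, 1 for Snora33 and 0 for Snord73b. Those chromosomes hold 3.82%, 5.64%, 4.65% and 4.71% of the genes, in the same order. Adjusted over the 33 pairs, 15 correlations above 0 and 2 below 0 had a permutation p under 0.05 by Pearson, and 13 and 1 by Spearman. Of the 17 called by Pearson, 16 had the same sign in all 3 plates.

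**Figure D3:**
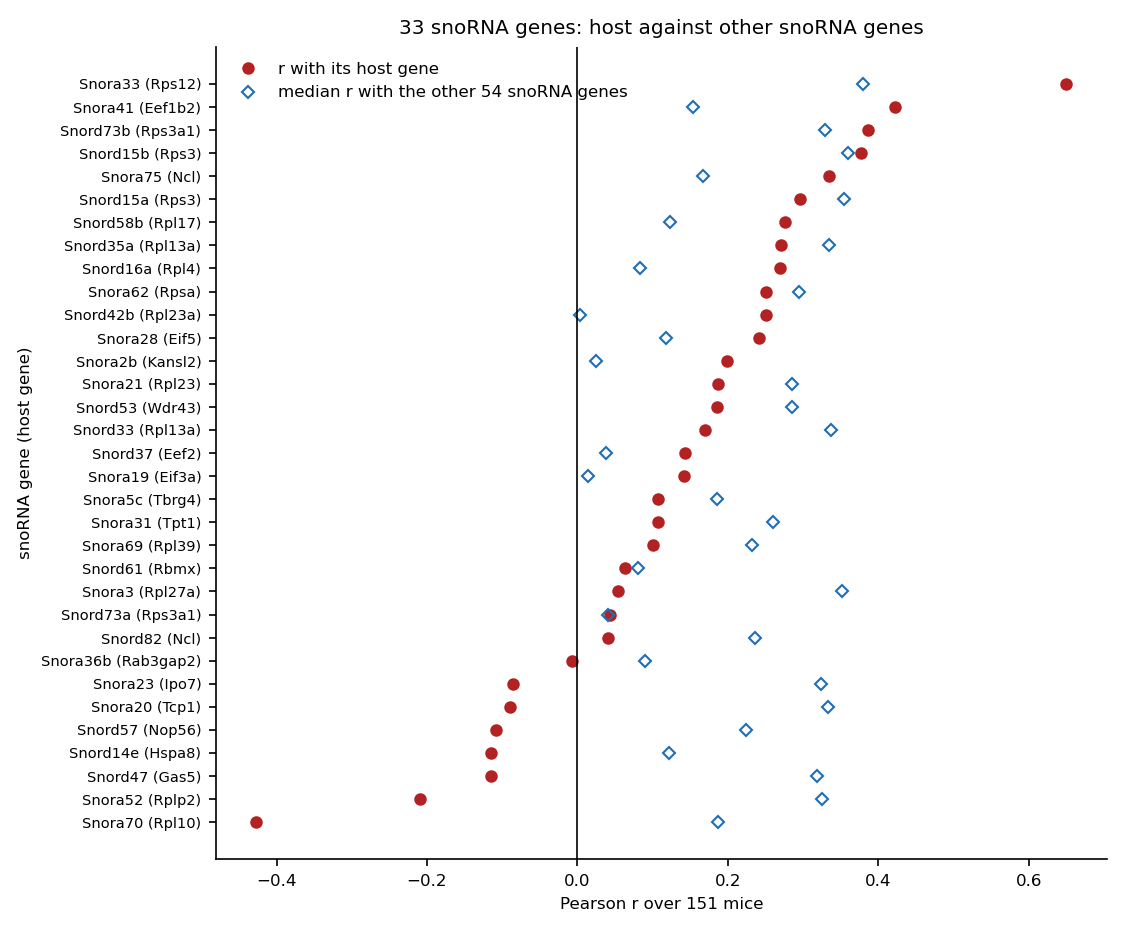
For 33 snoRNA genes, the Pearson r over all mice with the host gene (filled) and the median r with the other 54 snoRNA genes (open). Filled points run from -0.427 for Snora70 in Rpl10 to 0.650 for Snora33 in Rps12, and the open points lie between 0 and 0.4.

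Snora33 ran between 3.65 and 6.61 log2 (median 5.22) and its host Rps12, a small ribosomal subunit protein gene, between 9.29 and 10.53 (median 9.95). Mice high in one were high in the other, with r = 0.650 and rho = 0.654 (permutation p = 1e-05 each, adjusted p = 5.5e-05 and 8.3e-05). Without the 2 mice farthest from the Rps12 median r was 0.642, and it was 0.579, 0.732 and 0.596 in plates 1, 2 and 3. A relation to Rps12 was not particular to the snoRNA gene it hosts. Snora20, in Tcp1, had r = 0.684 with Rps12, and Snord15a, in Rps3, had r = 0.556.

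Snord73b (6.07 to 8.01, median 6.90) and Rps3a1, another small subunit protein gene (9.83 to 10.57, median 10.21), had r = 0.387 and rho = 0.420 (adjusted permutation p = 5.5e-05 and 8.3e-05). The plates differed in it, with 0.258, 0.745 and 0.120. Without the 2 farthest mice r was 0.372.

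For Snora41 and its host Eef1b2, a translation elongation factor gene, the mice were cut into 2 clusters by their Eef1b2 residual. Such a cut gives 2 groups for any set of values, and whether the mice form separate clusters was not tested. The 82 mice of the lower cluster averaged 10.22 for Eef1b2 and 4.36 ± 0.34 (SD) for Snora41, and the 69 of the upper cluster 10.70 and 4.70 ± 0.36. Within the lower cluster r was 0.0189 (rho 0.0437, permutation p = 0.87 and 0.69), and within the upper 0.186 (rho 0.125, permutation p = 0.13 and 0.30). The pair is among the 15 above by its value over all mice. The clusters were read from Eef1b2 itself after its values were seen, which narrows its range within each, so these values do not show whether the relation is absent there.

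Snora70 and its X-linked host Rpl10, a large subunit protein gene, went in opposite directions. Snora70 ran from 4.63 to 6.24 (median 5.42) and Rpl10 from 10.96 to 11.44 (median 11.18), with r = -0.427 and rho = -0.446 (adjusted permutation p = 5.5e-05 and 8.3e-05). The sign held in every plate at -0.435, -0.406 and -0.441, and r was -0.446 without the 2 farthest mice.

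Snora52 and Rplp2 had r = -0.209 and rho = -0.172 (adjusted permutation p = 0.023 and 0.071), with -0.362, -0.204 and -0.0474 in the plates. Rplp2 itself lay between 4.12 and 5.43 in these mice. The other measured ribosomal protein hosts had means from 9.69 (Rpl23a) to 11.94 (Rpl17). How well the Rplp2 probe set reports its RNA was not tested. Snord47 and Gas5, a noncoding growth arrest gene known as a host of many snoRNAs, had r = -0.115 and rho = -0.0748 (adjusted permutation p = 0.24 and 0.44) and -0.493 in plate 2 alone against 0.0814 and 0.0920 in plates 1 and 3.

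The comparison of HET with WT mice asks whether loss of 1 Hras copy goes with a change in skin gene expression. Of the 55 snoRNA genes 1 passed, Snord52, which was higher in HET mice. The test was limma with sex and plate in the fit and Benjamini-Hochberg adjustment over all 18810 genes, a call being an adjusted p under 0.05. It called 0.112% of all genes, 21 in number, of which 19 lie on chromosome 7 with Hras, and 0.0319% of all genes were called as higher. At an unadjusted p under 0.05 the count was 6 of 55, beside 6.57% of all genes.

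Snord52 is a short box C/D gene in 1110038B12Rik on chromosome 17. In WT mice its lowest value was 2.70, the median 3.23 and the highest 3.92, and in HET mice 2.66, 3.53 and 4.25. The ranges overlapped almost fully at the lower end, and HET mice extended further up. The difference was 0.26 ± 0.06 (SE, adjusted p = 0.014 by limma), with WT at 3.27 ± 0.26 (SD) and HET at 3.53 ± 0.40 (SD, n = 37). A two-sided permutation of the genotype labels within plate and sex gave p = 4e-05. This gene was singled out with that difference known, so the test is no independent support.

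Its level crossed the array background in 15 of 37 HET mice (40.5%) and in 4 WT mice (3.51%). HET exceeded WT in each plate, with means of 3.43 and 3.25 in plate 1, 3.53 and 3.25 in plate 2, and 3.59 and 3.29 in plate 3. In males the means were 3.62 in HET and 3.25 in WT, and in females 3.45 and 3.29. The difference between the sexes in this effect was 0.22 ± 0.11 (SE, adjusted p = 0.998 by limma), and no gene was called for it. The call was lost in each plate alone (adjusted p = 1.0, 0.331 and 0.289), in males alone (0.0935) and in females alone (0.881). It was lost too, at the same difference, when genes on chromosome 7 were left out of the adjustment (adjusted p = 0.205).

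**Figure D4:**
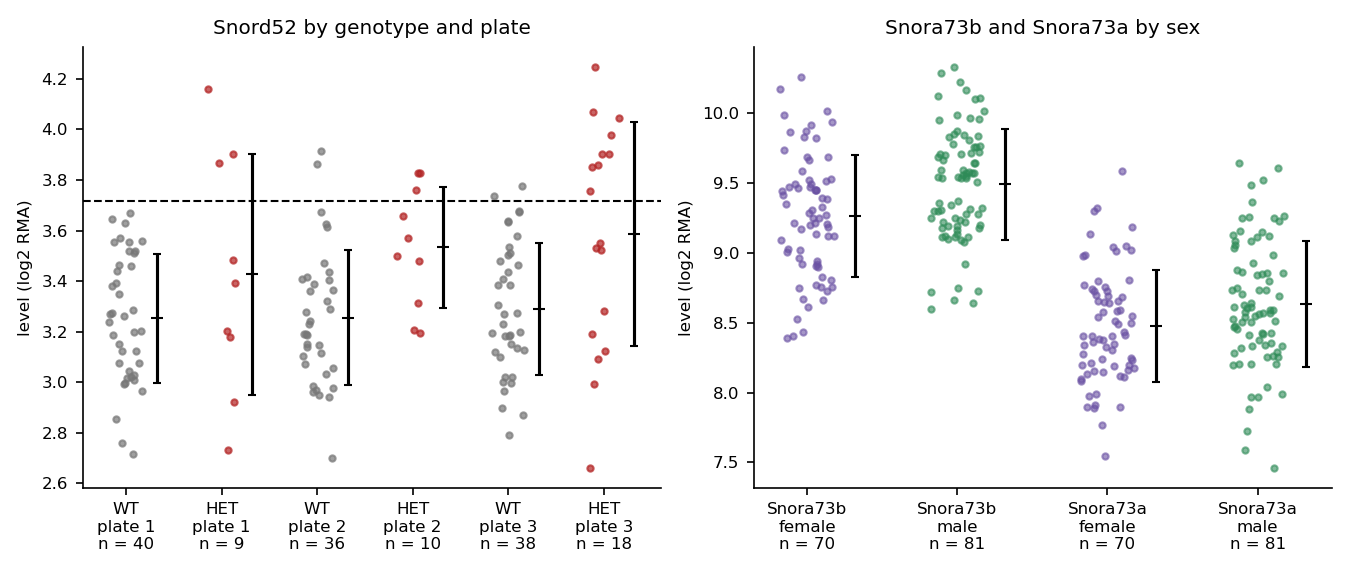
Left, the log2 level of Snord52 in each mouse by genotype and plate, with mean and SD beside the points and the array background dashed. Right, Snora73b and Snora73a in each mouse by sex, also with mean and SD. HET means of 3.43, 3.53 and 3.59 stand above WT means of 3.25, 3.25 and 3.29, with most points under the dashed line.

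The 5 genes most similar to Snord52 over all mice, by residual Pearson r, all lie on chromosome 17 with it. They were Trim10 (0.444), the RNA helicase gene Dhx16 (0.441), the glyoxalase gene Glo1 (0.423), the MHC class II gene H2-Ea (0.414) and Cyp4f13 (0.413). None of them was called for genotype, with differences of 0.24, 0.07, 0.04, 0.27 and 0.10 log2 and adjusted p by limma between 0.621 and 0.945. Against the other snoRNA genes the median r of Snord52 was 0.159.

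The next snoRNA genes by p did not pass. Snora70 stood at 5.36 ± 0.27 in WT and 5.54 ± 0.26 in HET, a difference of 0.17 ± 0.05 (SE, adjusted p = 0.262 by limma). Snora5c differed by 0.12 ± 0.05 (adjusted p = 0.610), Snord38a by 0.14 ± 0.06 (0.621), Snora30 by 0.18 ± 0.08 (0.664) and Snord42b by 0.09 ± 0.04 (0.676). Over all 55 the differences ran from -0.10 (Snord14e) to 0.26. They lay above 0 in 42 genes (76.4%), beside 49.9% of all genes, with a median of 0.04. The 12 other short noncoding RNA genes lay above 0 in 8 cases with a median of 0.03. Since the snoRNA genes move together across mice, these 42 are not separate observations.

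Of the 9 snoRNA genes on chromosome 7 none was called for genotype. Snora52 is the nearest to Hras, 17 measured genes beyond it, and averaged 10.53 in both genotypes (HET minus WT -0.002 ± 0.02, SE).

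**Figure D5:**
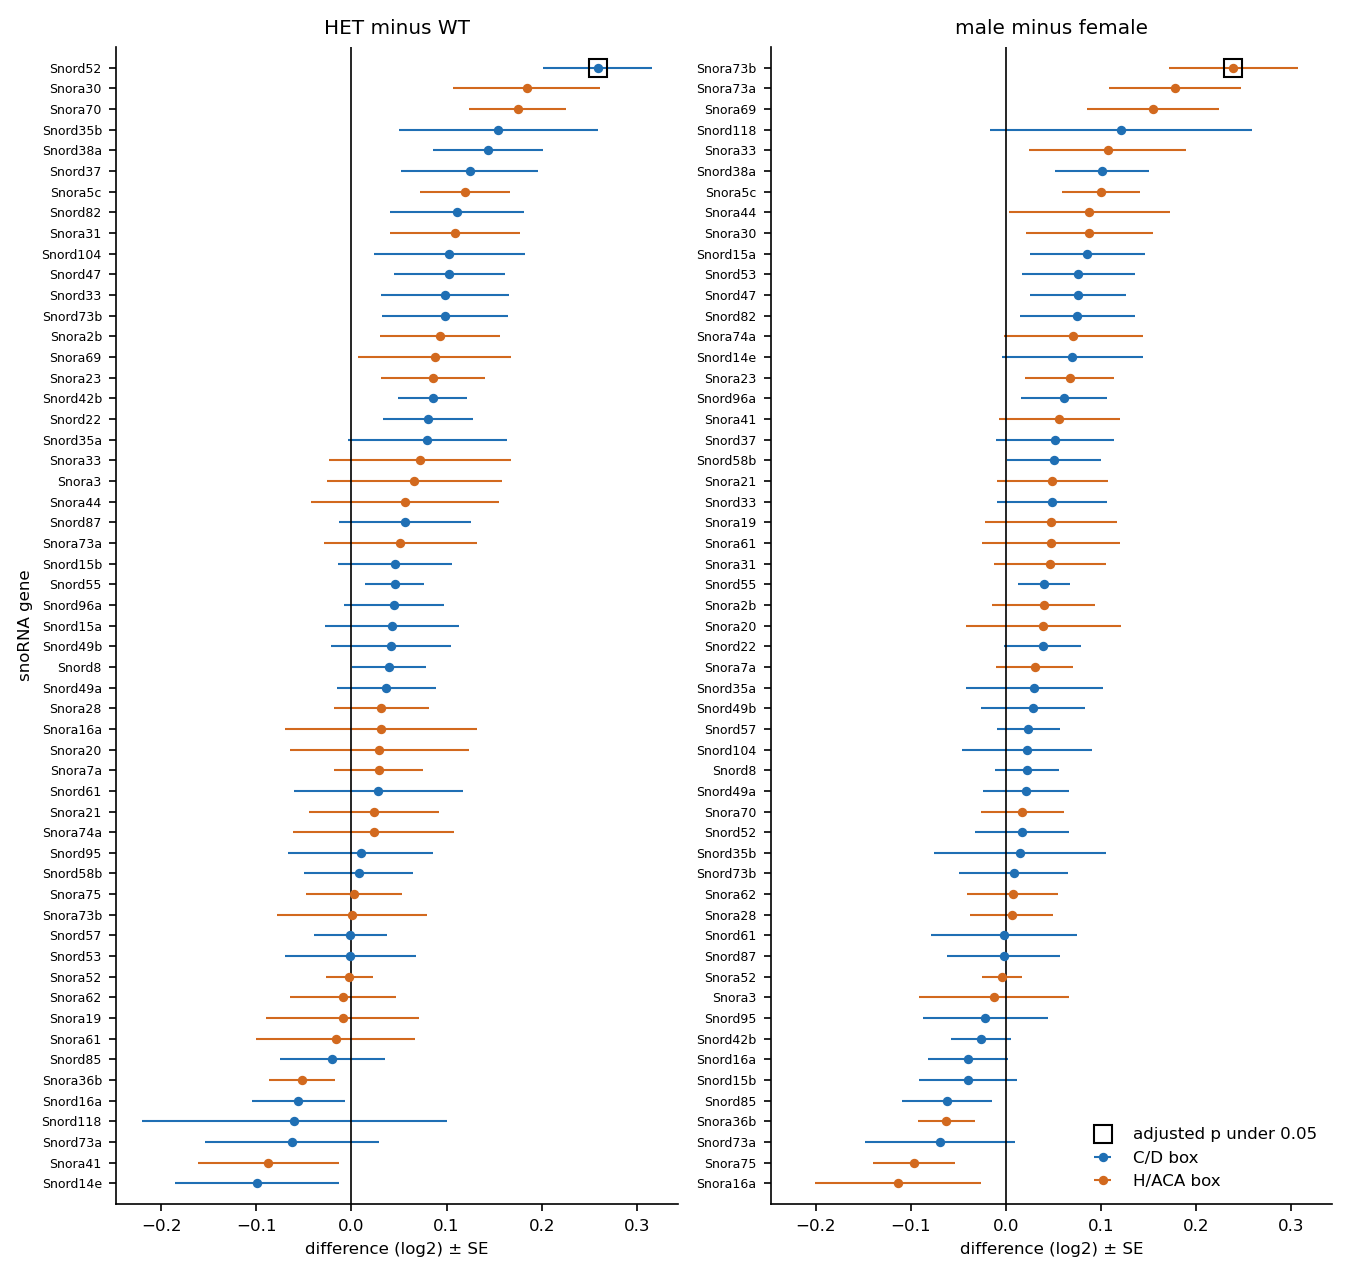
Differences of the 55 snoRNA genes between HET and WT mice (left) and between males and females (right), in log2 with SE, coloured by class, each panel in its own order. A square marks an adjusted p under 0.05, which only Snord52 (0.26) and Snora73b (0.24) carry in these 2 fits.

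Between the sexes 1 of the 55 genes passed, Snora73b, a U17 gene of Snhg3, which was higher in males. Overall 3.62% of genes were called for sex, and 1.1% of genes as higher in males. Males ran from 8.60 through a median of 9.54 to 10.33, and females from 8.39 through 9.26 to 10.26, so the ranges overlapped widely. The difference was 0.24 ± 0.07 (SE, adjusted p = 0.0238 by limma), with means of 9.49 ± 0.40 (SD, n = 81) and 9.26 ± 0.44 (SD, n = 70), and the two-sided permutation p was 0.00074. That permutation concerns this gene alone, without adjustment over all genes. The gene was called in the same mice, so the permutation is no independent support. The male minus female difference was 0.17 with the level of the other short RNAs in the fit (adjusted p = 0.0164 by limma). The adjusted p was 0.0655 in WT mice alone and between 0.222 and 0.668 in single plates.

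Its close copy Snora73a differed by 0.18 ± 0.07 in the same direction and was not called (adjusted p = 0.143 by limma). Neither were Snora5c (0.10, adjusted p = 0.169), Snora69 (0.15, 0.227) and Snora75 (-0.10, 0.230). As with genotype, 42 of 55 differences lay above 0, beside 44.9% of all genes, with a median of 0.04. Males and females differed in markers of cell types too: 3 of 5 dermal fibroblast markers were higher and 1 lower in males, 2 of 6 keratinocyte markers were higher, and 2 of 3 adipocyte markers and 1 of 3 leukocyte markers were lower. Mean fibroblast marker levels ran from 9.20 to 10.77 in males and from 9.31 to 11.05 in females, and the part of these cells in the snoRNA values was not tested. No marker was called for genotype.

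No snoRNA gene was called for plate. The F test over 3 plates (limma) called 0.0213% of all genes, the sex-linked Eif2s3y, Uty, Xist and Kdm5d. At an unadjusted p under 0.05 it gave 1 snoRNA gene, Snord22 (p = 0.0395, adjusted p = 1.0), which was 0.12 ± 0.05 (SE) higher in plate 3 than in plate 1, beside 0.808% of all genes. Snord52 means were 3.28, 3.32 and 3.39 in plates 1 to 3. No source used here says whether the deposited values were adjusted for plate. The 0.808% is a smaller share than that cut is expected to give where no gene differs between plates. The F test therefore cannot tell plates that did not differ from plate differences removed before deposit. No gene was called for a genotype effect that differs between plates or between sexes, where unadjusted p under 0.05 covered 9.07% and 4.76% of all genes and 0 and 0 snoRNA genes.

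The genes for proteins that build and trim snoRNA particles were tested in the same fits, where 0.112% of all genes were called for genotype and 3.62% for sex. Of 22 measured genes for core proteins, assembly factors and trimming enzymes none was called for genotype. For sex 1 was called, Nufip1, an assembly factor of box C/D particles, at -0.10 ± 0.03 in males (adjusted p = 0.0141 by limma). The methyltransferase gene Fbl differed by 0.06 ± 0.04 between genotypes and 0.01 ± 0.03 between sexes, and the pseudouridine synthase gene Dkc1 by -0.01 ± 0.04 and -0.02 ± 0.03.

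Among 7 measured noncoding host genes 1 was called for sex, Snhg11, higher in males by 0.36 ± 0.06 (SE, adjusted p = 2.45e-05 by limma), and none for genotype. Of the 29 measured hosts of the 55 genes none was called for genotype, and for sex 3 were higher in males and 1 lower, beside 3.62% of all genes called for sex and 1.1% called as higher in males. Those were Rps12 (0.15 ± 0.04), Rpsa (0.10 ± 0.03) and Rps3a1 (0.08 ± 0.02), all small subunit protein genes, and the RNA-binding protein gene Rbmx (-0.11 ± 0.03).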

How the data were processed

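The labels' protocols give Trizol and RNeasy purification and biotin labelling for Affymetrix arrays. The deposited values are log2 intensities made with RMA, per the submitters' processing notes. No source used here gives the version, the genome build or any plate adjustment. Of 35556 probe sets 171 were empty, 21201 had 1 symbol, 1881 several and 12303 none. Gene identifiers matched RefSeq (GRCm38.p6) for 21168. A gene was its single-symbol probe set with the highest mean.

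The 2 arrays labelled outlier were left out. Limma 3.58.1 (lmFit, eBayes with trend; genotype, sex and plate) was tested on simulated data: at 0.2 log2 it recovered 74 of 100 changed genes for genotype, 83 for sex and 78 for plate. The changed genes were drawn from all 18810, whose median residual SD was 0.22, against 0.36 for the snoRNA genes. Recovery among snoRNA genes alone was not simulated. Correlations used residuals of the limma fit and 100000 permutations. Each mouse is 1 sample.

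A host was the shortest longer gene whose interval holds the snoRNA gene. The intended same-strand condition was not applied, because the table used gives no strand.

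Members and lists were chosen with earlier results of these data known, and the list of other short RNAs after their values were seen. Named genes: Snord52, called genes, the 5 smallest p per contrast, the 8 brightest, the 8 most variable, Snhg12 genes, the 3 highest and 3 lowest host pairs, and the 5 genes most similar to Snord52.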

Additional observations from a re-analysis of the deposited data

How the results depend on the processing

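No paired analysis was possible because each array is a different mouse and the labels used here link no WT mouse to a HET mouse. In 9 alternatives Snord52 differed by 0.25 to 0.27, and in those fitted with limma it kept its call. Among them were array centring, the outlier arrays kept, and array background or other short RNAs (chosen after seeing the data) in the fit. The permutation test was the remaining alternative, and its p concerns this gene alone, without adjustment over all genes. Snord52 differed by 0.17, 0.28 and 0.30 in plates 1, 2 and 3 alone, and by 0.14 in females and 0.37 in males alone. Without chromosome 7 genes (chosen after seeing the data) its difference was 0.26, and it was uncalled in each of these settings. In those 6 settings, and among genes above background, where Snord52 was not tested, the count for genotype was 0. The count for sex was 0 in plates 1 and 2 and in WT mice alone; in plate 3 alone it was 1, Snora75 at -0.28 (adjusted p = 0.0147 by limma) where Snora73b was not called. The median r was 0.101 with hosts and 0.303 within hosts in plate 1 alone, 0.246 among snoRNA genes in plate 2 alone, and 0.0805 without the other short RNAs (chosen after seeing the data). Uncalled differences changed sign for Snora5c (-0.0423 for genotype in plate 1, -0.0306 for sex in plate 3), Snord38a (-0.00636, plate 2) and Snora75 (0.10, plate 2). Snora52 for genotype stood at 0.00173 with centring, 0.0630 in plate 2, 0.00138 without plate and 0.00925 in males. The cause of these changes was not tested. The count above background was 45 at the 99th percentile and 37 at the median of all genes. Snord52 was measured at or near background.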

Other observations

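The longer gene found most often beside the snoRNA genes was Snhg17, itself a noncoding snoRNA host, which stood among the 20 most similar genes of 27 of the 55 (named after its values were seen). The small subunit protein genes Rps21, Rps12 and Rps27 did so for 12, 10 and 8, and the gene 5730408K05Rik for 10. Snhg17 was not called for genotype (0.02 ± 0.07, SE, adjusted p = 0.991 by limma) or for sex (0.03 ± 0.06, adjusted p = 0.881).

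Where a snoRNA gene had a second probe set, the values were identical in every mouse for Snora5c and Snord118. The residuals correlated over all mice at 0.998 for Snora3, 0.976 for Snord58b, 0.884 for Snora30, 0.792 for Snora19 and 0.502 for Snora21, whose probe sets averaged 7.69 and 5.18.

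Of the 2 arrays labelled outlier, both WT males of plate 2, one had no snoRNA gene outside the range of the other mice and 6.65% of all genes outside it. The other had 4 snoRNA genes above that range (7.27% of the 55) and 9.37% of all genes outside it.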
